A study of Mus musculus with 15 samples.

Results

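The KLHL, TRIM and RNF ubiquitin ligase genes were followed in the hemibrain of mice on diets with 3 different ratios of n-3 to n-6 fatty acids. Members were all genes whose symbol begins with Klhl, Trim or Rnf followed by a digit, each represented by its probe of highest mean processed Cy5 signal and kept if that signal stood well above background on at least 5 of 15 arrays. The array carried 180 such genes, of which 130 were measured among 22557 genes in all, 13763 of them with a symbol: 27 of 35 KLHL, 33 of 65 TRIM and 70 of 80 RNF genes. The families were chosen by the measured diet differences of Klhl9, Trim41 and Rnf10 in these arrays, so the diet differences of these 3 genes are given as a description.

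Male C57BL/6j mice entered the study at 3 weeks of age and stayed on 1 of the diets for 24 weeks. The ERD diet was rich in n-3 polyunsaturated fatty acids (n-3 to n-6 parts of 7 to 1), the BLD diet was balanced (1 to 1) and the STD diet was the standard laboratory diet (1 to 6), all with equal calories. Each diet had 5 mice, with 1 array per hemibrain, and array numbers within a diet only name the arrays. Hemibrain RNA carried Cy5 and a pool of RNA from 11 mouse cell lines carried Cy3 on every array, so each value below is a log2 ratio of hemibrain over that reference unless stated otherwise. No dyes were swapped. All sample titles carry the word control, so groups were taken from the diet label.

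Ubiquitin ligases choose which proteins are tagged with ubiquitin. KLHL proteins are substrate adaptors: a BTB domain binds the cullin CUL3 and a Kelch propeller holds the substrate. TRIM proteins join a RING finger, B-boxes and a coiled coil in 1 chain, and many act in innate immunity or in neurons. RNF genes are named for a RING finger alone, which recruits the ubiquitin-conjugating enzyme, and so form a group by motif more than by descent. In neurons such ligases set the turnover of receptors, cytoskeletal proteins and transcription factors.

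The tissue label was checked against cell markers. All 10 neuronal markers, 7 of 8 astrocyte and 7 of 8 oligodendrocyte markers had a mean log2 ratio above 1 in STD. So did 4 of 8 microglial, 4 of 7 endothelial, 4 of 6 choroid plexus and 5 of 5 erythroid markers. Spots well above background in Cy5 numbered 17720 on ERD 1 and 22467 to 31991 on the other arrays, and members well above background numbered 100 on ERD 1 and 116 to 130 elsewhere. The 15 arrays lay on 8 slides and were scanned on 2 days; ERD 4, BLD 2, BLD 3 and BLD 4 were scanned on the second day, and slide 1 held ERD 4, BLD 2 and BLD 3 with no STD array. The mean of the 8 oligodendrocyte markers, each centred on its mean over arrays, ran from -0.61 to -0.02 in ERD, from -0.07 to 0.18 in BLD and from 0.02 to 0.15 in STD, and no marker of this list was called in ERD against STD. In the other lists the ERD and STD ranges overlapped. Endothelial markers ran from -0.40 to 0.05 in ERD and from -0.03 to 0.25 in STD. Neuronal markers ran from -0.56 to 0.15 in ERD and from -0.20 to 0.27 in STD. Interferon response markers had the higher mean in ERD, from -0.10 to 0.20 in ERD and from -0.17 to 0.02 in STD. Astrocyte markers ran from -0.18 to 0.29 in ERD and from -0.07 to 0.11 in STD. For microglial markers the ranges were -0.29 to 0.10 in ERD and -0.19 to 0.05 in STD. Choroid plexus markers had -0.36 to 0.25 in ERD and -0.11 to 0.45 in STD, and erythroid markers -0.27 to -0.05 and -0.29 to 0.10. The part of these marker differences in the diet differences below was not tested. In whole tissue fewer cells of a type and less RNA per cell cannot be told apart.

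The stretches just upstream of the 3 genes the families were chosen for are shown because Klhl9 and Trim41 had lower and Rnf10 higher ratios in ERD. Each is the 250 bases before the RefSeq transcription start in build GRCm38.p6, 5′ to 3′ on the gene's own strand, which is the minus strand for all 3. Capitals mark matches to the motifs named below.
Klhl9 (chr4:88722509-88722758, minus strand): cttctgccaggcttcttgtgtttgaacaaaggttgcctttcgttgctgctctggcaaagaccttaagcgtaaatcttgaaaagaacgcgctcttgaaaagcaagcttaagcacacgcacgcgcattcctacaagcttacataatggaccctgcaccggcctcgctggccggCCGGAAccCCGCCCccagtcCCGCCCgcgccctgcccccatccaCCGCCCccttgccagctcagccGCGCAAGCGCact
Trim41 (chr11:48817392-48817641, minus strand): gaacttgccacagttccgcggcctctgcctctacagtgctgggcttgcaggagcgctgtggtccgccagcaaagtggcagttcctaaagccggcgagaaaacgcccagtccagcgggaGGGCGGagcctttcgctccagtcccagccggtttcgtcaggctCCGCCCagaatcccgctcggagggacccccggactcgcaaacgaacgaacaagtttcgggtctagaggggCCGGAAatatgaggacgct
Rnf10 (chr5:115272896-115273145, minus strand): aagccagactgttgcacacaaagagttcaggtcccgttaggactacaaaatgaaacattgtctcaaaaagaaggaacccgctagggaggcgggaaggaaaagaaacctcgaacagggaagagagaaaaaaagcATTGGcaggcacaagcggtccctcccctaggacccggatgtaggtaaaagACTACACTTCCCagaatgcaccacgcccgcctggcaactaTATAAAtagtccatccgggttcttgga
The search covered both strands. An ETS site was spelled CCGGAA, the core bound by that family of activators. The SP1 site, a GC box common in housekeeping promoters, was spelled GGGCGG. The CRE, the site of CREB proteins, was the palindrome TGACGTCA. The E-box of helix-loop-helix factors was spelled CACGTG. The TATA box, which positions the start of transcription, was TATAAA, and the CCAAT box, NRF1 and ZNF143 sites were also searched. Klhl9 held 1 ETS, 1 NRF1 and 3 SP1 matches, and Trim41 held 1 ETS and 2 SP1 matches. Rnf10 held 1 TATA, 1 CCAAT and 1 ZNF143 match, and matches of different motifs did not overlap in these windows. Among 27018 genes with a promoter entry, ETS letters occurred in 12.2%, NRF1 in 3.86%, SP1 in 32.9%, TATA in 13%, CCAAT in 34.5% and ZNF143 in 1.81%. The CRE, in 1.62% of promoters, and the E-box, in 6.05%, had no match in the 3 windows. Of the measured members 102 had an entry, and SP1 letters occurred in 61.8% of them, ETS letters in 23.5% and NRF1 letters in 11.8%. ETS letters occurred in 9 of 22 KLHL, 6 of 26 TRIM and 9 of 54 RNF promoters. GC content was 59.6% for Klhl9, 63.2% for Trim41 and 49.6% for Rnf10, against a median of 52% over all entries and 59.8% over the members. The members had passed the detection rule and the 27018 entries were not filtered, so members and entries are unlike sets. A match describes the letters in the window and says nothing of binding.

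Before the diets were compared, the members' ratios to the reference pool showed which of them are brain-rich. In STD the median log2 ratio was 0.28 over the 130 members and 0.09 over all genes; 28 members lay above 1 and 6 below -1. Because all hemibrain samples carried the same dye, a ratio can hold a dye effect and is given without a test. Trim9, a brain ligase that binds the netrin receptor, had 4.93 ± 0.43 (SD, n = 5). Klhl13, which pairs with KLHL9 on CUL3 in dividing cells, stood at 4.65 ± 0.27 (SD, n = 5), and Trim37, a ligase of peroxisomes and centrosomes, at 3.91 ± 0.25 (SD, n = 5). Klhl32 at 3.34, Rnf165 (a ligase of motor axon growth) at 3.60, Rnf208 at 3.15, Rnf227 at 2.97, Trim2 at 2.74 (a ligase of neurofilament light chain) and Klhl2 at 1.71 (an actin-binding adaptor) were the other genes among the 3 highest of their families on this scale. The order depended on the background correction: in the deposited log ratios Klhl13 had 8.37 and Trim9 5.38, Rnf112 was the highest RNF gene at 5.88 (2.60 here), and Rnf182 at 4.68, Trim67 at 4.34 and Klhl4 at 3.67 lay among the 3 highest of their families, where Rnf227, Rnf208, Trim2 and Klhl2 did not. Cy3 signal of Klhl13 was 6.04 to 6.56 (log2) and that of Trim9 8.29 to 10.1; the part of reference signal in the order was not tested. At the low end, on the scale used here, Trim25, the ligase that activates the RNA sensor RIG-I, had -2.10 ± 0.15 (SD, n = 5) and Trim47 had -1.66 ± 0.43 (SD, n = 5). Rnf125 had a mean ratio of -1.34, Trim56 of -1.24, Rnf2 (the Polycomb RING subunit) of -1.06, Rnf138 of -0.90, Klhl21 (a mitotic adaptor) of -0.62, Klhl30 of -0.45 and Klhl26 of -0.24.

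**Figure D1:**
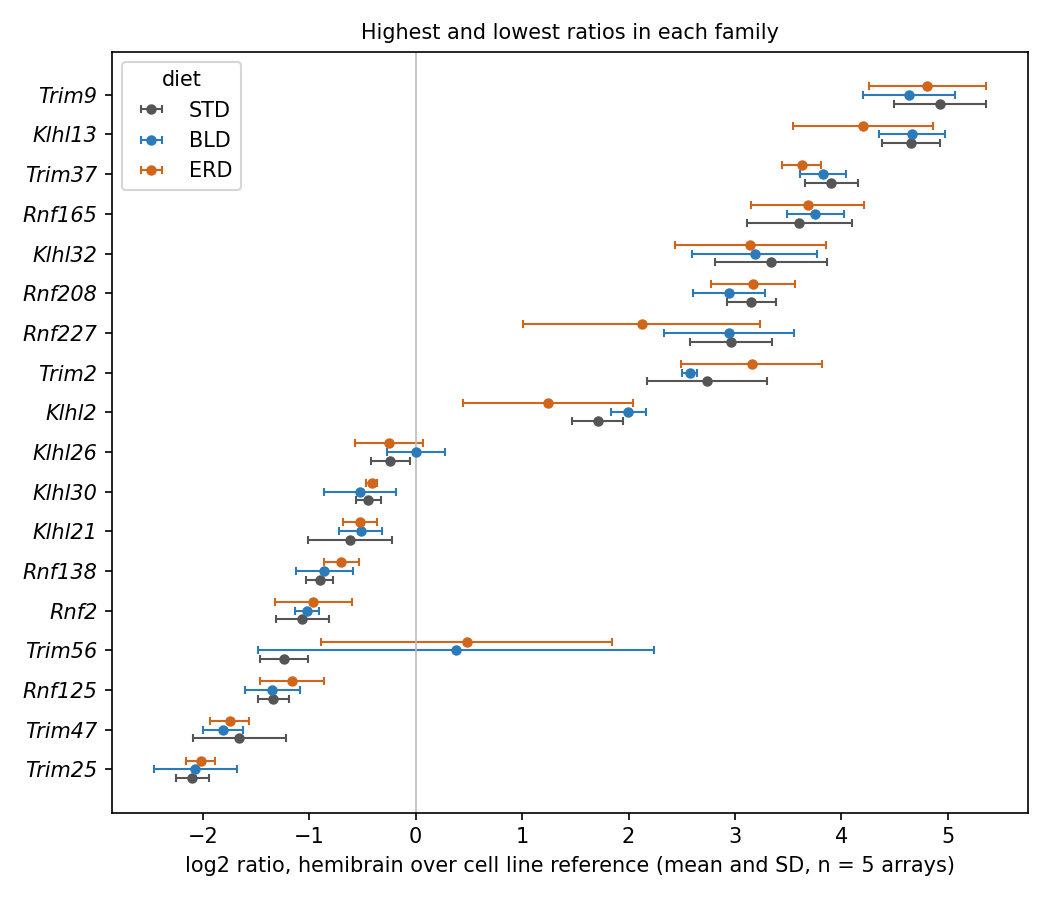
Mean log2 ratio of hemibrain over the cell line reference (horizontal axis, bars 1 SD, n = 5 arrays per diet) for the 3 highest and 3 lowest members of each family. Trim9 and Klhl13 sit above 4 in all diets and Trim25 near -2, while Trim56 is at -1.24 in STD and has wide bars in BLD and ERD.

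Members that were not measured are described by role. None of the 4 TRIM genes of muscle on the array (Trim54, Trim55, Trim63 and Trim72) passed the detection rule, and 7 of 16 interferon-related TRIM genes did. All 7 TRIM genes listed for neurons were measured. Just inside the rule were Klhl11 and Klhl24 with 5 arrays and Klhl14 with 6, and just outside were Trim36 with 4 and Klhl23, Klhl34 and Trim29 with 3. Klhl24, an adaptor of intermediate filaments, reached that level on 3 arrays of STD and 2 of BLD but on 0 of ERD, where its ratio is only a bound. All 15 arrays detected 98 of the 130 members, and no member was saturated.

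Klhl9, the adaptor that together with KLHL13 and CUL3 removes Aurora B from mitotic chromosomes, was lower in ERD. Its log2 ratio on the ERD arrays was -0.59, -0.81, 0.04, -0.37 and 0.00. On the BLD arrays it was 0.08, 0.13, 0.53, 0.08 and -0.15, and on the STD arrays 0.76, 0.67, 1.14, 0.43 and 0.90. All ERD values lay below all STD values, whereas BLD 3 at 0.53 overlapped STD 4 at 0.43. The fitted difference of ERD minus STD was -1.13 ± 0.18 (SE, 5 arrays a group), a 2.18-fold lower ratio. The family was chosen by this difference, so it is a description and no test. The BLD minus STD difference was -0.64 ± 0.18, and that of ERD minus BLD -0.48 ± 0.18. The order of mean ratios was thus STD, BLD, ERD, and BLD and ERD overlapped.

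Trim41, a ligase for protein kinase C that is also known to degrade the transcription factor ZSCAN21, was lower in both n-3 diets. The ratio read -0.32, -0.61, -0.39, -0.63 and -0.54 on the ERD arrays and -0.77, -0.52, -0.68, -0.31 and -0.52 on the BLD arrays. On the STD arrays it read 0.01, -0.06, 0.27, 0.18 and 0.65. Every ERD and every BLD array lay below the lowest STD array, and ERD and BLD shared 1 range. The difference from STD was -0.71 ± 0.14 (SE) in ERD and -0.77 ± 0.14 in BLD, ratios lower by 1.63-fold and 1.70-fold, and ERD differed from BLD by 0.06 ± 0.14.

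Rnf10, a ligase that carries signals from the NMDA receptor subunit GluN2A to the nucleus and also tags ribosomal proteins, was higher in both n-3 diets. The ERD arrays gave 1.23, 1.23, 1.14, 1.48 and 1.33 and the BLD arrays 1.13, 1.31, 1.37, 1.23 and 1.13. The STD arrays gave 0.27, 0.69, 0.65, 0.31 and 0.70. The lowest n-3 value, 1.13, exceeded the highest STD value, and again ERD and BLD could not be separated. Relative to STD the ratio was higher by 0.76 ± 0.11 (SE) in ERD and 0.71 ± 0.11 in BLD, or 1.69-fold and 1.64-fold, and ERD minus BLD was 0.05 ± 0.11. ERD and BLD were both set against the same STD arrays, so these pairs of differences share their controls.

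**Figure D2:**
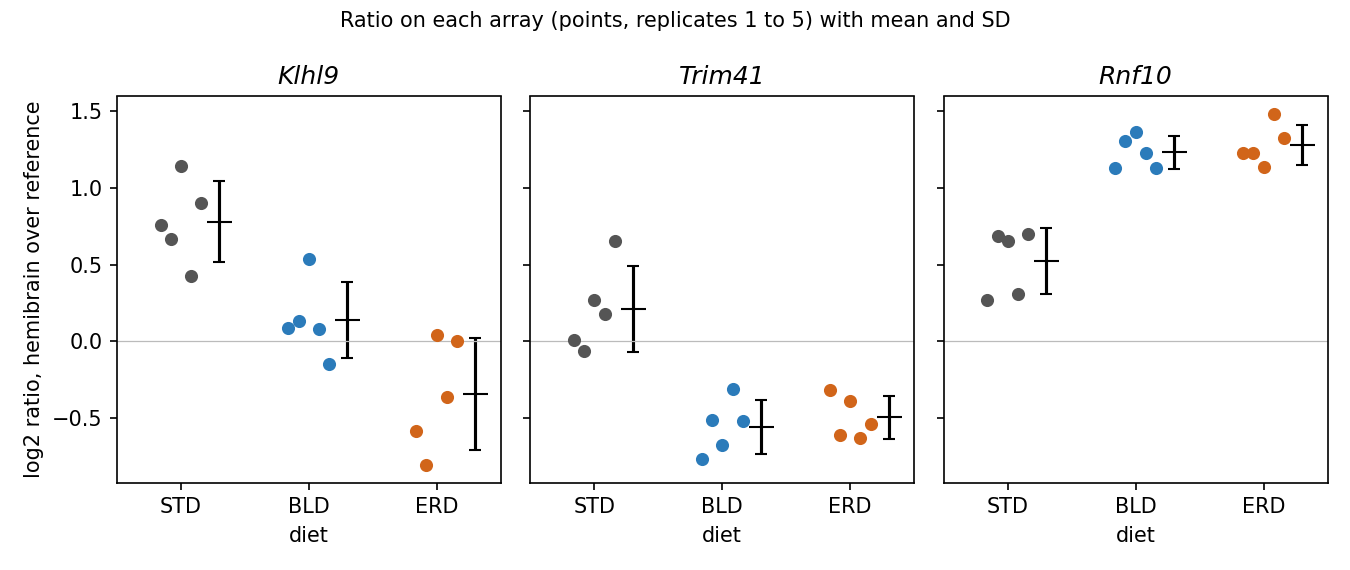
Log2 ratio of hemibrain over reference (vertical axis) on each of the 5 arrays per diet for Klhl9, Trim41 and Rnf10, with the mean and 1 SD beside the points. The mean of Klhl9 falls from STD through BLD to ERD, and the BLD arrays overlap both other diets. Trim41 and Rnf10 each show ERD and BLD together, below STD for Trim41 and above STD for Rnf10.

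Each of the 3 genes had a single probe on the array (A_55_P2154714 for Klhl9, A_55_P1962339 for Trim41 and A_55_P1970154 for Rnf10), so no further probe could be compared. Cy3 signals of the same spots, which hold the reference RNA, differed between ERD and STD by 0.01 for Klhl9, -0.08 for Trim41 and 0.08 for Rnf10 on the log2 scale. With Cy5 alone the ERD minus STD differences were -0.99, -0.70 and 0.78. Within the 3 slides that held both an ERD and an STD array, Klhl9 was lower in ERD by 1.48, 0.72 and 0.43 log2 units, with 1 array a side, and the same slides gave -0.55, -0.39 and -0.72 for Trim41 and 0.54, 0.87 and 1.02 for Rnf10. Without ERD 1 and ERD 2 the Klhl9 difference was -0.89. None of the nearest neighbouring genes in the RefSeq order passed the test in ERD against STD: the log2 change was -0.33 for Rack1 and 0.00 for Trim7, next to Trim41, 0.03 for Pop5 and -0.14 for Coq5, next to Rnf10, and -0.04 for Ifnab and -0.10 for Gm13271, next to Klhl9, with adjusted p between 0.45 and 0.993 (limma).

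Partners of the 3 proteins were measured too. Klhl13 had a mean ratio of 4.20 in ERD, 4.66 in BLD and 4.65 in STD (ERD against STD adjusted p = 0.434). Cul3, the scaffold, differed by 0.28 in ERD and 0.29 in BLD without passing the test, and Aurkb and Meox2 were not measured. Prkcb, a protein kinase C isoform of the kind TRIM41 targets, read 4.79, 4.38, 4.29, 4.07 and 4.54 in ERD and 5.24, 4.79, 5.05, 4.87 and 5.01 in STD. Its difference of -0.58 ± 0.15 (SE) had an adjusted p of 0.123, and the groups met at 4.79. Grin2a, the GluN2A gene, had -0.94 ± 0.33 (adjusted p = 0.222), with 1 ERD array at 3.33 inside the STD range. Zscan21 differed by 0.35 in both n-3 diets, within its spread. Of the 6 partners measured, 0 were called by limma in any comparison, where 0.217% of all genes were called in ERD against STD. At an unadjusted p under 0.05, 2 partners differed in ERD against STD, both lower. The share over all genes at that level was 14.6%, with 7.54% lower.

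Across the families, calls at an adjusted p under 0.05 (limma moderated test, Benjamini-Hochberg over all 22557 genes) were few. In ERD against STD 3 members were called, against a background of 0.217% of all genes, and these were the 3 genes for which the families were chosen: 1 was higher (0.106% of all genes) and 2 lower (0.111%). In BLD against STD limma called 0 members against 0.00887% of genes, and in ERD against BLD 0 members against 0%. The F test over 3 diets called 1 member, Rnf10, against 0.0488%. At an unadjusted p under 0.05, 27 of the other 127 members (21.3%) differed between ERD and STD, where the share was 14.6% over all genes. The same count was 17 of 127 (13.4%) for BLD against STD, with 10.8% over all genes, and 12 of 127 (9.45%) for ERD against BLD, with 10.4%. Of 27 such members in ERD against STD, 11 were higher (7.09% of all genes) and 16 lower (7.54%). In BLD against STD 12 were higher (7.77%) and 5 lower (3.07%), and in ERD against BLD 2 were higher (2.63%) and 10 lower (7.75%). Leaving out ERD 1 and ERD 2 lowered the number of all members at that level from 30 to 21, with 12.2% of all genes. With ERD 4 left out 0 members were called in ERD against STD (0.0222% of all genes), and likewise with slide 1 left out (0%). The deposited log ratios also gave 0 (0.191%). Without ERD 1 and ERD 2 the number was 2 (Rnf10 and Trim28), with 0.137% of all genes. Slide 1, and ERD 1 with ERD 2, were left out after the data were seen.

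In ERD against STD the median log2 change was -0.16 for KLHL, 0.04 for TRIM and 0.02 for RNF genes, beside 0.02 over all genes. Of the 27 KLHL genes 19 were lower, against 47.1% of all genes; this count holds Klhl9, for which the family was chosen, and Klhl24, whose ERD ratio is a bound. Without Klhl9 it was 18 of 26 (median -0.13), and without both 17 of 25 (median -0.16). The mean over KLHL genes per array, each centred on its own mean, ran from -0.23 to 0.10 in ERD and from 0.01 to 0.14 in STD, so the diets overlapped. For BLD against STD the medians were -0.06, 0.00 and 0.04, beside 0.05, and for ERD against BLD -0.06, -0.03 and -0.06, beside -0.04. Groups did not overlap for 7 members in ERD against STD (3.79% of all genes), 6 in BLD against STD (2.89%) and 0 in ERD against BLD (1.37%; 0.35% higher and 1.02% lower). In ERD 4 of the 7 were higher (1.96% of all genes) and 3 lower (1.83%), and in BLD 5 of the 6 were higher (2.16%) and 1 lower (0.731%). These counts hold the genes for which the families were chosen; among the other 127 members the groups did not overlap for 4 (3.15%) when ERD was set against STD, and likewise for 4 (3.15%) when BLD was. By sign alone, 65 of 130 members were higher in ERD against STD (52.9% of all genes), 61 were lower in BLD against STD (39.4%), and in ERD against BLD 54 were higher (41.9%) and 76 lower (58.1%).

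**Figure D3:**
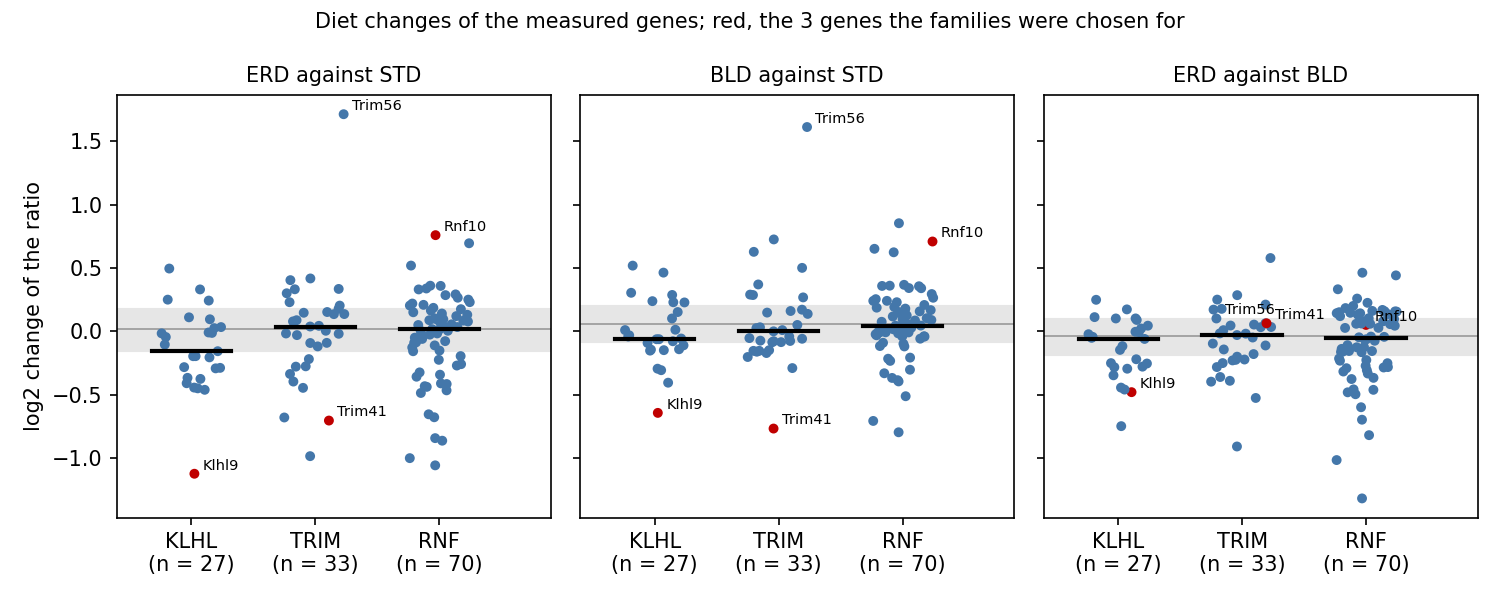
Fitted log2 change (vertical axis) of each measured gene by family in the 3 comparisons; black bars are family medians, the grey band is the middle 50% of all genes and the line its median. The KLHL median in ERD against STD is -0.16 and the other medians lie near the line, and of the members Trim56 alone exceeds 1 in ERD and BLD against STD.

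Among KLHL adaptors other than Klhl9, Klhl12, which acts on the COPII coat, and Klhl17, an actin-binding adaptor of neurons, had the lowest p in ERD against STD. Klhl12 read 0.13, 0.02, -0.10, 0.11 and 0.48 in ERD and 0.25, 0.39, 0.88, 0.40 and 0.60 in STD, a difference of -0.38 ± 0.14 (SE, adjusted p = 0.25). Klhl17 differed by -0.29 ± 0.12 (adjusted p = 0.276). The ranges of both genes overlapped between the diets. All 5 adaptors listed for neurons and actin were lower on average in ERD (median -0.29), beside 47.1% of all genes and 19 of the 27 KLHL genes. The 5 include Klhl24, whose ERD ratio is only a bound. Of the 5, 1 was lower at an unadjusted p under 0.05 (7.54% of all genes) and 0 were called by limma. Klhl2 of this group read 0.19, 0.97, 1.23, 1.45 and 2.39 in ERD against 1.32 to 1.89 in STD, so its spread was the wider in ERD; the difference of -0.46 became -0.02 without ERD 1 and ERD 2. Klhl20 at -0.80 and -1.20 on ERD 1 and ERD 2 was likewise lowest on those arrays. In BLD against STD Klhl8, an adaptor for rapsyn, was higher by 0.46 ± 0.13 (adjusted p = 0.321) and Klhl25, an adaptor for the translation repressor 4E-BP1, lower by 0.41 on average, with overlapping arrays; a further Klhl25 probe, detected on 6 arrays, gave 0.0023 in BLD against STD and 0.27 in ERD against STD, where the probe used gave -0.16. Of the 5 adaptors of cell division, 1 was called in ERD against STD (0.217% of all genes). It was Klhl9, for which the family was chosen. Klhl18 had -0.11 in BLD against STD. Klhl40 differed by -0.37 and Klhl30 by 0.03 in ERD, the only measured adaptors listed for muscle. Klhl1 differed by -0.30 in BLD, within its spread.

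TRIM ligases varied most through a few genes and a few arrays. Trim56, an antiviral ligase of the STING pathway, read 1.00, 0.49, -0.48, 2.45 and -1.07 in ERD and -1.18, 2.65, 2.16, -0.92 and -0.81 in BLD. In STD it stayed between -1.47 and -0.96. The difference from STD was 1.72 ± 0.75 (SE, adjusted p = 0.313) in ERD and 1.61 ± 0.75 (adjusted p = 0.461) in BLD. The 3 highest arrays, ERD 4, BLD 2 and BLD 3, were those of slide 1. Without slide 1 the differences were 1.22 and 0.26. Cy3 signal of this probe lay between 11.3 and 11.7 (log2) on all arrays, and the part of the slide in the result was not tested.

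Rnf180, Rnf224 and Trim71 also had their 3 highest ratios on slide 1. Rnf180, a membrane ligase of the endoplasmic reticulum, read 2.03, 2.15 and 1.94 there and 0.40 to 1.51 on the other 12 arrays. Rnf224 read 0.95 to 1.53 against 0.02 to 0.82, and Trim71, the stem cell ligase LIN41, 0.58 to 0.70 against -0.02 to 0.29. These 4 members are 3.08% of those measured, and 6.84% of all genes had slide 1 arrays apart from the others. Slide 3, with ERD 1 and BLD 1, stood apart for 5 members (4.17% of all genes), slide 4 for 3 (2.59%), slide 5 for 1 (0.949%) and slide 7 for 0 (0.199%).

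A second group of members had its lowest ratios on ERD 1 and ERD 2. Rnf126, a ligase of cytosolic quality control, read -2.62 and -2.91 on these arrays and -1.10 to 0.22 on the other 13. Rnf5, a ligase of endoplasmic reticulum quality control, read -1.95 and -1.92, with -0.74 to 0.68 elsewhere. Trim8, a regulator of cytokine signalling, read -1.54 and -1.18, with 0.13 to 1.08 elsewhere. Trim35 at -1.08 and -0.67 and Rnf40, a ligase of histone H2B, at -1.03 and -0.87 were likewise apart. The fitted ERD minus STD differences of -1.06 (Rnf126), -1.002 (Rnf5), -0.99 (Trim8), -0.68 (Trim35) and -0.44 (Rnf40) included these 2 arrays; adjusted p ranged from 0.204 for Trim35 to 0.418 for Rnf40 (limma). Without those arrays Rnf5 differed by -0.28, Trim8 by -0.24 and Trim35 by -0.23. A further Trim35 probe gave -0.07 in ERD against STD. In all, 11 members (8.46%) had ERD 1 and ERD 2 as their lowest arrays, a pattern found in 5.38% of all genes.

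**Figure D4:**
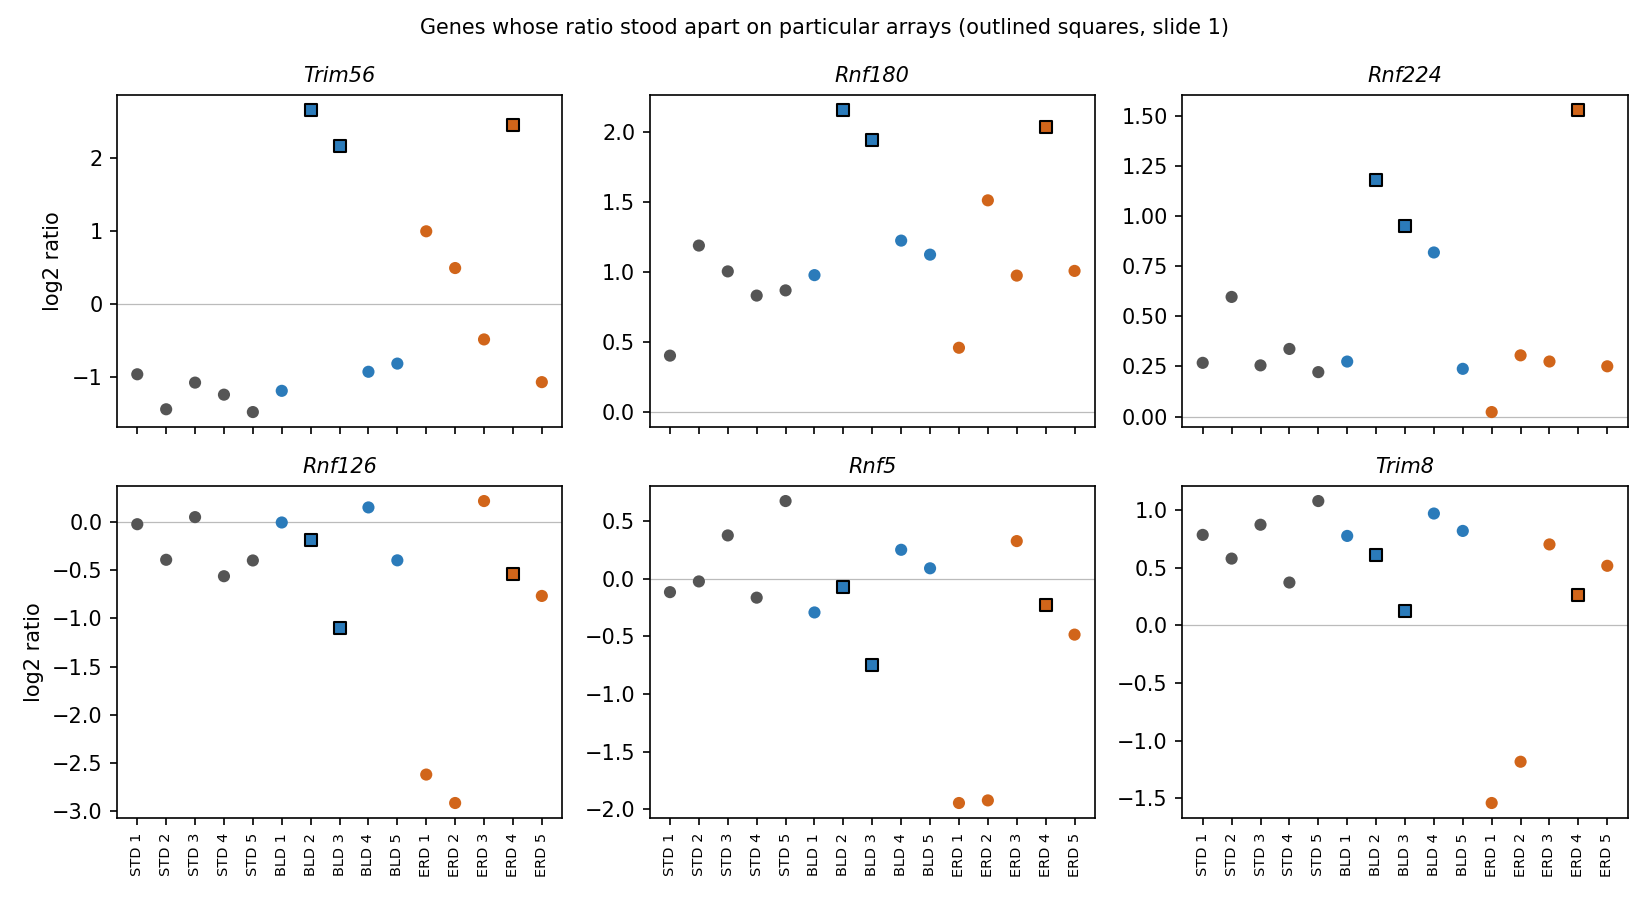
Log2 ratio (vertical axis) on each of the 15 arrays, coloured by diet, for 6 genes; outlined squares are the arrays of slide 1. Trim56, Rnf180 and Rnf224 are highest on the squares, and Rnf126, Rnf5 and Trim8 drop on ERD 1 and ERD 2 while the other arrays of all diets overlap.

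Trim28, the corepressor KAP1 that silences repeats with zinc finger proteins, read -1.43, -0.63, -0.11, -0.15 and -0.05 in ERD and -0.56, -0.26, -0.37, -0.17 and -0.53 in BLD. STD read -0.77, -0.81, -0.76, -0.87 and -1.17. All BLD arrays and 4 of 5 ERD arrays lay above STD, and ERD 1 lay below. The difference was 0.50 ± 0.21 (SE, adjusted p = 0.446, limma) in BLD and 0.40 ± 0.21 (adjusted p = 0.396) in ERD. Without ERD 1 and ERD 2 the ERD difference was 0.77 (adjusted p = 0.0388, limma). These arrays were left out after the data were seen, and ERD 1 was the array below STD, so this p-value is no test of Trim28. Trim33, a related regulator of SMAD signalling, read -0.17, -0.14, 0.04, -0.05 and 0.43 in ERD against 0.23 to 0.85 in STD, a difference of -0.45 ± 0.14 (adjusted p = 0.194). In ERD against STD the 4 measured TRIM genes of chromatin split 2 higher and 2 lower.

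Trim68, a coactivator of the androgen receptor, was the member with the lowest p in BLD against STD among the other 127. It read 0.09, 0.54, -0.05, 0.56 and 0.05 in BLD and -0.42, -0.46, -0.53, -0.38 and -0.66 in STD. The groups did not overlap, and the difference was 0.73 ± 0.15 (SE, adjusted p = 0.164). In ERD it was 0.33 ± 0.15 (adjusted p = 0.33), with ERD 5 at -0.59 inside the STD range. Trim43b had 0.37 in BLD (adjusted p = 0.443) and has near-identical copies, so its signal is uncertain. Trim21, an antibody receptor, had -0.15 in BLD and overlapped STD.

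Among TRIM genes of neurons, Trim67, a relative of Trim9, was lower by 0.34 on average in ERD (adjusted p = 0.211, limma) and Trim32 by 0.28 (adjusted p = 0.32). Trim67 was dim in both channels, with Cy5 signal of 5.87 to 6.35 and Cy3 signal of 5.81 to 6.03 (log2). Its difference ran from -1.38 to -0.23 under the alternatives, so its size is uncertain. Trim3, a ligase of postsynaptic scaffolds, was higher by 0.63 on average in BLD (adjusted p = 0.45), and its further probe gave 0.88. Trim2 gave 2.47 to 2.65 in BLD and 2.56 to 4.19 in ERD. Its further probe went the other way in ERD against STD, -0.63 beside 0.42 for the probe used. Of the 7 genes 0 were called by limma, and at an unadjusted p under 0.05 1 was higher (7.09% of all genes) and 2 lower (7.54%) in ERD against STD.

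RNF ligases with non-overlapping groups in ERD against STD were Rnf10, for which the family was chosen, Rnf135, Rnf31, Rnf139 and Rnf114. Groups did not overlap for 3.79% of all genes, and for 4 (3.15%) of the 127 members other than Klhl9, Trim41 and Rnf10. Rnf135, which tags RIG-I, read -0.43, -0.47, -0.44, -0.35 and -0.66 in ERD and -0.94, -0.87, -0.78, -0.82 and -0.73 in STD, a difference of 0.36 ± 0.10 (SE, adjusted p = 0.151). It is the lowest adjusted p among the other 127 members. With Cy5 alone the difference was 0.08, and Cy3 differed by -0.15. A further Rnf135 probe, detected on 5 arrays, gave -0.02 in ERD against STD. Rnf31, the catalytic subunit of the linear ubiquitin assembly complex, read 0.23, 0.90, 0.21, 0.45 and 0.24 in ERD and -0.09, -0.11, 0.16, -0.58 and 0.05 in STD. Its difference was 0.52 ± 0.17 (adjusted p = 0.194), and a further Rnf31 probe gave 0.61 ± 0.16 (adjusted p = 0.118 over all probes). Rnf139, a sterol-regulated ligase of the endoplasmic reticulum, was higher by 0.27 ± 0.10 in ERD (adjusted p = 0.263) and 0.19 in BLD, where the groups also did not overlap. Rnf114 was lower by 0.43 on average in ERD (adjusted p = 0.223), and its further probe gave -0.21. In BLD Rnf187, a coactivator of c-Jun, lay above STD on all arrays (0.29 ± 0.10, adjusted p = 0.399).

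Further RNF genes with low p overlapped between diets. Rnf4, the SUMO-targeted ligase, had -0.68 in ERD against STD and Rnf20, the partner of Rnf40, had -0.34. Rnf167, a lysosomal ligase of AMPA receptors, had 0.70, with 0.19 from its further probe, and Rnf130 had 0.33. Rnf166 differed by -0.80 and Rnf220 by -0.51 in BLD against STD, and a further Rnf220 probe, detected on all 15 arrays, gave 0.07. In ERD against BLD the lowest p were those of Rnf44 (-0.50 ± 0.15, adjusted p = 0.343), Rnf112 (-1.32 ± 0.48, adjusted p = 0.415) and Rnf144a (-0.60 ± 0.22, adjusted p = 0.421). Rnf112, a brain GTPase with a RING finger, read 0.57, 1.91, 1.86, 3.32 and 3.01 in ERD and 3.01, 4.12, 3.07, 4.66 and 2.41 in BLD, so ERD 4 and ERD 5 lay within the BLD range. Rnf150 reached 4.88 on STD 3 alone and 0.25 to 1.22 on all other arrays, and its further probes differed by -0.07 and -0.02 in ERD against STD, where the probe used gave -0.86.

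By role, in ERD against STD, the 7 RING-between-RING genes had 0 called and a median change of 0.00, the 8 membrane ligases with a protease-associated domain 0 called and 0.07, the 10 of chromatin and DNA damage 0 called and -0.01, the 8 of the endoplasmic reticulum 0 called and 0.11, and the 7 of neurons and glia 1 called (Rnf10) and 0.05. Of all genes 0.217% were called, and the family was chosen for Rnf10, the 1 gene called here. At an unadjusted p under 0.05 the role groups, in the same order, held 1, 2, 2, 2 and 1 members, and 14.6% of all genes passed that level.

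Probes that the rule did not use gave a second reading for 34 members. Of 38 such probes, 21 had the sign of the probe used in ERD against STD. Rnf7, the RING subunit of CUL5 ligases, had 3 further probes, at -0.68 ± 0.12 (SE, adjusted p = 0.0438 over all probes, limma), -0.52 and -0.23, and the probe used gave -0.23. All 4 were lower in ERD, and 1 passed the test. Rnf14, a RING-between-RING ligase, gave 0.10 with the probe used and -0.81 with the further probe (adjusted p = 0.118), so its direction depends on the probe.

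The rest of the pathway was followed through lists. Of 33 genes of cullins, neddylation and the COP9 signalosome, limma called 0 in ERD against STD, with 6 higher and 3 lower at an unadjusted p under 0.05, where 7.09% of all genes were higher and 7.54% lower. Nedd8, the modifier that activates cullins, read 0.79, 0.61, 0.59, 0.80 and 1.00 in ERD and 0.33, 0.19, 0.42, 0.28 and 0.24 in STD, a difference of 0.46 ± 0.10 (SE, adjusted p = 0.0777). Cops6, a signalosome subunit, differed by 0.43 ± 0.11 (adjusted p = 0.119). The groups did not overlap for either gene. In BLD against STD Cops7a had -0.34 and Cops2 0.40, and in ERD against BLD Cops8 had -0.64, with 0 of 33 called by limma in each.

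Of 35 ubiquitin, E1 and E2 genes limma called 0, with 3 higher and 4 lower at an unadjusted p under 0.05 in ERD against STD, beside 14.6% of all genes in either direction. Ube2a, the conjugating enzyme that works with Rnf20 and Rnf40, read -0.36, -0.24, 0.16, -0.40 and 0.35 in ERD and 0.55, 0.65, 0.58, 0.54 and 0.90 in STD. It differed by -0.74 ± 0.15 (SE, adjusted p = 0.0659), and no ERD array reached STD. Ube2j2, an enzyme of the endoplasmic reticulum, had -0.42 (adjusted p = 0.161). Uba1, the main activating enzyme, had 0.33 and Ube2l6 0.39 in BLD against STD, and Ube2w had -0.60 in ERD against BLD, none past the test.

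Among 23 HECT and U-box ligases 1 was called in ERD against STD, beside 0.217% of all genes: Ube4a, a U-box enzyme that extends ubiquitin chains. It read 0.99, 1.27, 0.73, 0.68 and 0.80 in ERD, 0.88, 0.95, 0.44, 1.15 and 0.97 in BLD and 0.11, 0.31, 0.12, 0.26 and -0.20 in STD. Both n-3 diets lay above all STD arrays. It was higher by 0.78 ± 0.15 (SE, adjusted p = 0.0479, limma) in ERD, and the BLD difference was 0.76 ± 0.15 (adjusted p = 0.13). With slide 1 left out, or on the first scan day only, 0 of all genes were called in ERD against STD, Ube4a included. Ube4b, a relative of Ube4a, differed by 0.72 ± 0.19 (adjusted p = 0.126) in ERD and 0.66 ± 0.19 (adjusted p = 0.36) in BLD, again without overlap. Ube3b, a HECT ligase, differed by 0.50 ± 0.11 in ERD (adjusted p = 0.0715). In BLD against STD 19 of 23 were higher, against 60.6% of all genes, and in ERD against BLD 0 were called and 7 were lower at an unadjusted p under 0.05 (7.75% of all genes), among them Hectd2 (-0.40) and Herc3 (-0.70).

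**Figure D5:**
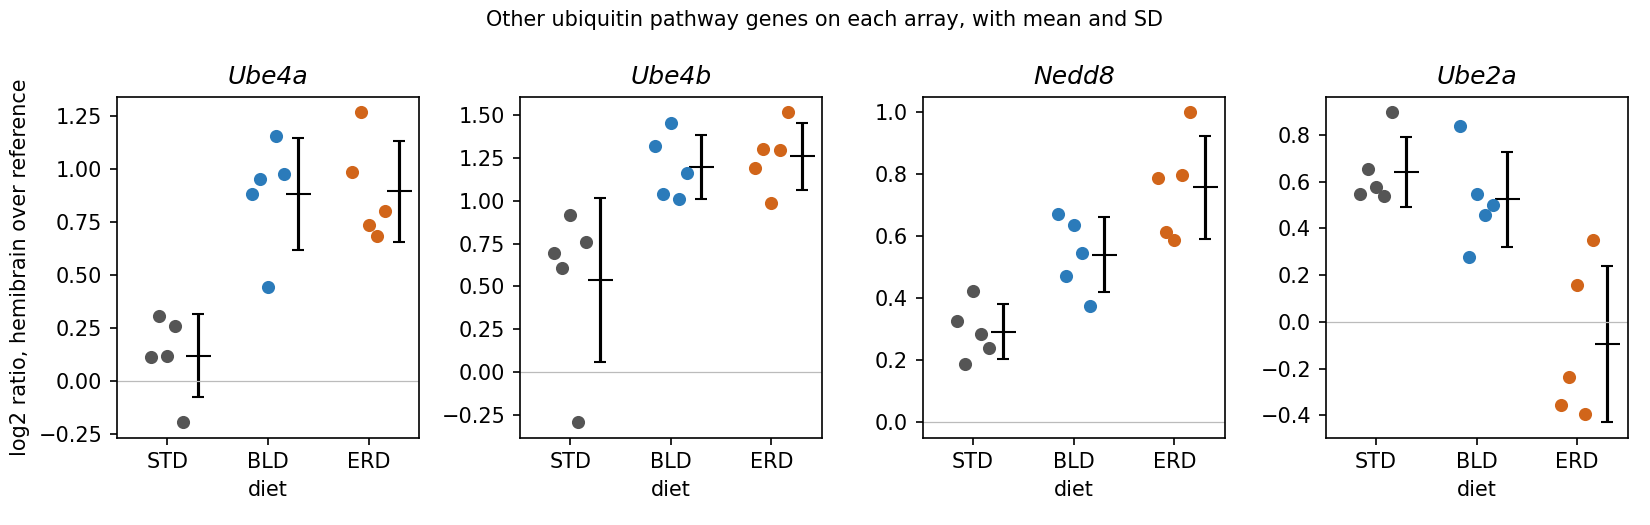
Log2 ratio (vertical axis) on each of the 5 arrays per diet, with mean and 1 SD, for Ube4a, Ube4b, Nedd8 and Ube2a. ERD lies above STD without overlap for the first 3 genes and below STD for Ube2a, whose BLD mean lies near STD.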

How the data were processed

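Hemibrain RNA (Cy5) and a reference pool (Cy3) were hybridised to 15 arrays, 5 per diet. The deposited scanner files hold spot intensities (median pixels), per the file headers from Feature Extraction 11.5.1.1, where the submitters' processing notes name 10.7. The deposited log10 ratios of Cy5 over Cy3 were background-subtracted and dye-normalized by that software per the file headers, and served as an alternative after conversion to log2. The headers name build mm9, so no coordinate was taken from the files; symbols and promoter sequences come from RefSeq (GRCm38.p6).

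From the deposited intensities, normexp (offset 50) and loess within arrays gave log2 ratios in limma 3.58.1 (R 4.3.3), with control spots at weight 0. Outlier spots (0.574%) were dropped and spots of a probe averaged. A probe had to exceed background clearly in Cy5 on 5 or more arrays and to have 8 or more values, and the probe of highest mean processed Cy5 signal represented a gene. One limma model over 15 arrays (12 residual degrees of freedom) gave the 3 comparisons and an F test. P-values are two-sided and Benjamini-Hochberg adjusted over 22557 genes, or over all probes where stated. They measure the spread between these arrays, whose number limits the precision. The model was also run on simulated arrays with independent noise and no slide or scan day differences. That run says nothing of how slides or scan days affect the calls here.

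The members and lists were chosen with earlier results of these data known. The genes named are Klhl9, Trim41 and Rnf10, every called member, the 3 members of lowest p per family and comparison, the called genes or else the 2 of lowest p per list, and the 3 highest and 3 lowest ratios in STD per family. Rnf126, Rnf114, Rnf224, Rnf7, Rnf14, Rnf182, Klhl4, Cul3, Ube3b and the neighbouring genes were named after their values were seen. Alternatives changed background correction, channel, filter, samples fitted, slide, scan day and array weights, or left out arrays. Figures were drawn with matplotlib 3.10.9.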

Additional observations from a re-analysis of the deposited data

Results flagged for a closer look

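In 11 of 192 sets of 5 arrays, from 64 members, 1 array stood far from the other 4, with a gap above 0.71 of the group's range. Chance alone marks about 1 in 20 such sets. Rnf150 on STD 3 was 4.88, with 0.38 to 1.20 on the other STD arrays. Klhl32 was 4.37 on ERD 2 (others 2.60 to 3.04) and 4.19 on BLD 1 (others 2.72 to 3.14). Rnf165 was 4.61 on ERD 2 (others 3.31 to 3.56) and 4.23 on BLD 5 (others 3.58 to 3.69). Rnf208 was 3.85 on ERD 1 (others 2.91 to 3.16), and Rnf157 was 1.69 there (others 3.00 to 3.32). Rnf4 was -0.62 on ERD 3 (others -1.48 to -1.25). Rnf31 was 0.66 on BLD 5 (others 0.06 to 0.21). On STD 5, Trim28 was -1.17 (others -0.87 to -0.76) and Klhl21 was 0.087 (others -0.88 to -0.72).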

How the results depend on the processing

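No paired analysis was possible because the labels give no replicate numbers shared between diets. The number of members called in ERD against STD (3) was 0 with the deposited log ratios (0.191% of all genes). It was also 0 with only the 2 diets fitted (0.0975%) and with slide as a fixed block (0.00443%). With slide 1 left out and on the first scan day only, both chosen after seeing the data, it was 0 (0% of all genes). With 1 array left out it ranged from 0 to 3, and the share of all genes from 0.0222% to 0.763%. In BLD against STD it was 1 without a filter (0.0102% of all genes). It was 1 with slide as a random block (correlation 0.19, 0.031% of all genes) and 3 with array weights (0.155%). The F test called 0 members with the deposited ratios, normexp offset 1, slide or scan day as a fixed block, and under the 3 alternatives chosen after seeing the data, which include leaving out ERD 1 and ERD 2. It called 3 with slide as a random block, 4 with array weights, 2 with spot number as a covariate and 0 to 2 with 1 array left out. Shares over all genes were not counted for the F test under these alternatives.

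With the deposited ratios the KLHL median was -0.28 in ERD against STD, the RNF median -0.049 in BLD against STD and 0.030 in ERD against BLD, and Rnf10 0.55 in BLD against STD and 0.24 in ERD against BLD. The sign turned for Klhl30 (-0.82 in ERD against STD, -0.30 in ERD against BLD), Trim21 (0.036) and Rnf144a (-0.30) in BLD against STD, and Klhl13 (0.47) in ERD against BLD. With offset 1 the BLD against STD medians were -0.23 (KLHL), -0.10 (TRIM) and -0.056 (RNF), the RNF median in ERD against BLD was 0.014, and Klhl30 (-0.35) and Klhl13 (0.0070) turned. With Cy5 alone the RNF medians were -0.034 in BLD against STD and 0.025 in ERD against BLD. Signs turned for Klhl30 (-0.15 in ERD against STD, -0.016 in ERD against BLD), Klhl18 (0.024), Trim21 (0.0061) and Rnf130 (-0.099) in BLD against STD, and Klhl13 (0.068) and Klhl40 (0.14) in ERD against BLD. Without a filter the KLHL median in ERD against STD was -0.045, and with detection on all arrays Rnf121 was 0.13 in ERD against BLD.

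With slide as a fixed block the KLHL median was 0.078 in BLD against STD and -0.23 in ERD against BLD, and in BLD against STD Klhl18 (0.078), Klhl40 (0.16), Trim21 (0.0096), Trim33 (0.13), Rnf150 (0.068), Rnf8 (-0.11) and Rnf112 (-0.087) turned. With scan day as a block the KLHL median in ERD against BLD was -0.17, and Trim21 (0.048) and Trim33 (0.014) turned in BLD against STD. On the first scan day only that median was -0.15, and Klhl1 (0.023), Trim21 (0.051) and Trim33 (0.046) turned. Array weights turned Klhl18 (0.0019) and Rnf8 (-0.0059) in BLD against STD. The covariate turned Klhl30 in ERD against STD (-0.026) and Klhl40 (0.11) and Rnf217 (-0.0070) in ERD against BLD. Without ERD 1 and ERD 2 the TRIM median was -0.092 in ERD against STD and -0.12 in ERD against BLD, where Rnf5 turned (0.024).

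Within single slides ERD against STD was -1.48 (slide 4), -0.72 (slide 5) and -0.43 (slide 7) for Klhl9, -0.39 (slide 5) for Trim41, and 0.54 (slide 4) and 1.02 (slide 7) for Rnf10; ERD against BLD was 0.45 (slide 3) for Trim41 and 0.15 (slide 7) for Klhl9. With 1 array left out the medians in ERD against BLD ranged from -0.18 to -0.056 (KLHL) and from -0.11 to 0.027 (RNF). Klhl30 ranged from -0.0088 to 0.075 in ERD against STD, Klhl40 from -0.18 to 0.063 in ERD against BLD, and in BLD against STD Klhl18 from -0.22 to 0.0020, Klhl30 from -0.16 to 0.024, Trim33 from -0.15 to 0.011 and Rnf150 from -1.01 to 0.11. Klhl9, Trim41 and Rnf10 kept their sign against STD under every alternative run. The families were chosen by the differences of these 3 genes in the same arrays, so this is a description and no support for them. The causes were not tested. The fewest members, 100, stood well above background on ERD 1.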
